A study of Mus musculus with 6 samples.

Results

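The genes described here are 10 genes of the fibroblast growth factor (FGF) pathway, chosen as a list by their role, and all 10 are among the 17428 gene symbols measured. They comprise the 4 signalling receptors (*Fgfr1* to *Fgfr4*), the ligands *Fgf1* and *Fgf2*, the ligand carrier *Fgfbp1* and the Sprouty genes *Spry1*, *Spry2* and *Spry4*. RNA was sequenced from EpH-4, a mouse mammary epithelial cell line, in 3 stages with 2 libraries each, 6 in all. E cells were left without TGFβ1, M cells had been given TGFβ1 for 7 days, and RE cells had been treated in the same way and then kept in normal medium for another 4 days. All stages were grown in the same serum- and insulin-containing medium. Of 7 epithelial markers, *Cdh1*, *Epcam* (listed under its older symbol *Tacstd1*), *Krt8*, *Krt18* and *Krt14* had means of 127 ppm or more in each group, whereas those of *Krt5* and *Krt19* were 0.472 ppm or less.

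Most FGFs are secreted ligands that bind receptor tyrosine kinases together with heparan sulphate. The active receptor signals through the docking protein Frs2 and the Ras-ERK cascade, and ERK activity in turn raises the transcription of inhibitors such as the Sprouty proteins and Dusp6, which restrain the same cascade. In the mammary gland, Fgfr2 in its epithelial splice form answers FGFs made by the stroma and is needed for branching, while Fgfr1 is the receptor most often associated with mesenchymal cells.

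Values are normalized coverage in ppm, that is, the sequenced bases assigned to a gene per 1000000 bases in its library, after TMM normalization. The libraries held between 35782513 and 47928557 reads' worth of 50 bases. The floor was set at 3 reads' worth, or 150 bases, which came to 0.0635 to 0.0781 ppm, and it allows for counting error only. A log2 fold change is the difference between group means of log2(ppm + 0.1), which makes the change of low genes look smaller than it was, and its standard error (SE) and adjusted p-value come from limma fitted to all 13893 genes tested. Genes were called differentially expressed (DEGs) where the log2 fold change exceeded 1 in either direction and the adjusted p was below 0.01. By this rule 17.0% of all genes tested were called in E vs. M (8.58% raised and 8.39% reduced in M), 12.9% in M vs. RE (8.08% raised and 4.79% reduced in RE) and 9.37% in E vs. RE (6.20% raised and 3.17% reduced in RE). Of the DEGs of E vs. M, 50.6% were higher in the M cells after TMM and 30.5% when libraries were scaled by their totals only, and for M vs. RE the share higher in the RE cells was 62.8% and 73.8%. The 2 E libraries were less alike than the others, and their log2 difference had an SD over genes of 0.558, against 0.318 for M and 0.309 for RE. In bulk RNA, fewer cells expressing a gene and less RNA per cell cannot be told apart.

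Of the 10 genes, 7 were tested, and each of these had at least 1216 bases in every library. *Fgfr4*, *Fgf2* and *Spry4* did not have 500 bases in 2 libraries and were not tested. In E vs. M, 6 of the 7 were called, with *Fgfr1* and *Fgf1* raised in M and *Fgfr2*, *Fgfbp1*, *Spry1* and *Spry2* reduced. In M vs. RE, 4 were called, all higher in the RE cells, namely *Fgfr2*, *Fgf1*, *Fgfbp1* and *Spry1*. In E vs. RE, *Fgfr1*, *Fgfr2* and *Fgf1* were higher and *Spry1* was lower in the RE cells. The genes were chosen with results of these libraries known, so these counts describe them and are no test of the pathway.

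**Figure D1:**
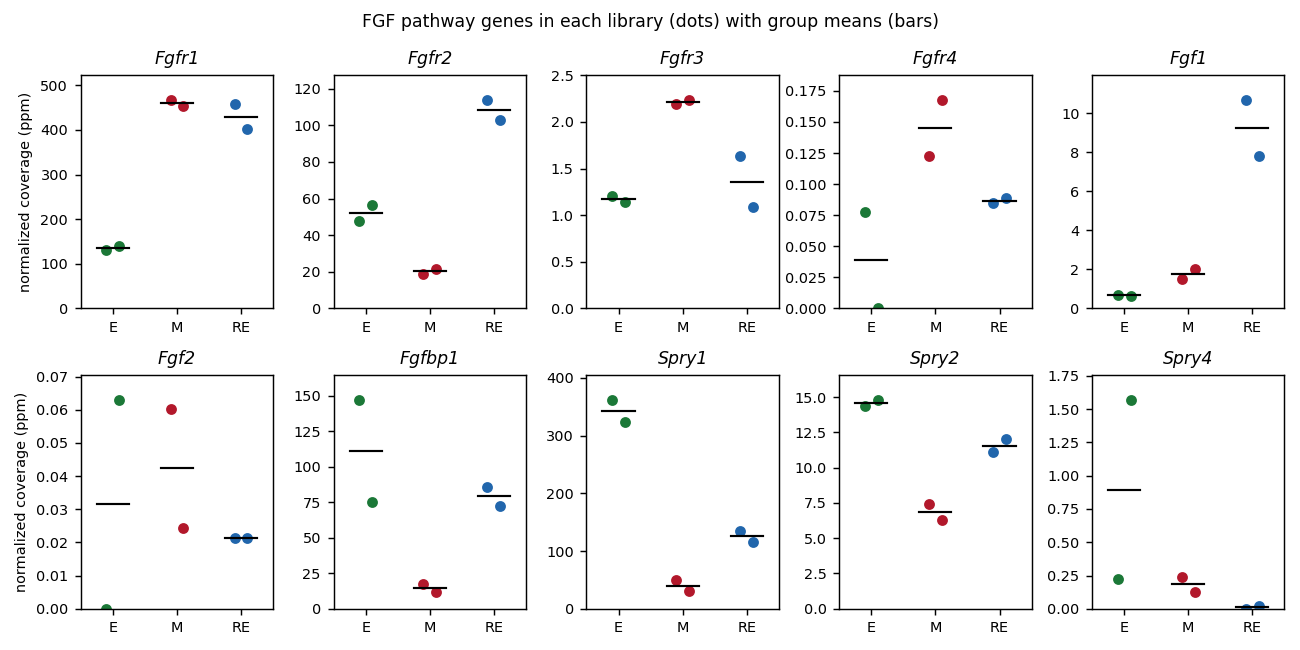
Normalized coverage in ppm (y axes, linear and starting at 0, a separate scale for each gene) of the 10 genes in the 2 libraries of the E, M and RE cells (dots), with the group means (bars). *Fgfr1* was between 402 and 468 ppm in the M and RE libraries and at 141 ppm or less in the E libraries, while *Spry1* was highest in the E libraries and lowest in the M libraries.

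Among the receptors, *Fgfr1* had the highest coverage per length in all 6 libraries. It was at 130 and 141 ppm in the E libraries, 468 and 453 ppm in the M libraries and 458 and 402 ppm in the RE libraries. All M and RE libraries lay above both E libraries, and the M and RE libraries overlapped. The log2 fold change of *Fgfr1* was 1.76 (SE 0.13, adjusted p = 8.06e-05 by limma) comparing E with M, and 1.66 (SE 0.13, adjusted p = 0.000418) in E vs. RE, both called. In M vs. RE it was −0.10 (95% interval −0.42 to 0.21, adjusted p = 0.606 by limma), and this small difference changed sign to 0.10 when libraries were scaled by their totals only, where the median of all genes was 0.18. At 4 days after TGFβ1 removal, the *Fgfr1* mean was 3.17 times that of the E cells.

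*Fgfr2* moved in both steps. It was at 48.0 and 56.5 ppm in the E libraries, 18.9 and 21.7 ppm in the M libraries and 114 and 103 ppm in the RE libraries, and no 2 groups overlapped. The background share of genes without overlap was large, at 70.6% of those tested for E vs. M, 78.1% for M vs. RE and 66.7% for E vs. RE. The log2 fold change of *Fgfr2* was −1.36 (SE 0.15, adjusted p = 0.000453 by limma) comparing E with M and 2.41 (SE 0.15, adjusted p = 3.94e-05) in M vs. RE. The RE mean of *Fgfr2* was 2.08 times its E mean, a log2 fold change of 1.06 (SE 0.15, adjusted p = 0.00282 by limma), just past the fold threshold. That call was lost under 7 of 17 alternatives, with values between 0.94 and 1.18 and adjusted p-values by limma of up to 0.0521. The splice forms of *Fgfr2* cannot be read from coverage summed per gene.

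*Fgfr3* and *Fgfr4* were low throughout. *Fgfr3* was at 1.21 and 1.14 ppm in the E libraries, 2.19 and 2.24 ppm in the M libraries and 1.63 and 1.09 ppm in the RE libraries, and it was not called in any comparison (log2 fold change 0.86 from E to M, −0.69 from M to RE and 0.17 from E to RE, with adjusted p = 0.0350, 0.0856 and 0.663 by limma). Both M libraries lay above the E and RE libraries, and the E and RE libraries overlapped. *Fgfr4* was listed at 0.0778 and 0 ppm in the E libraries, 0.123 and 0.168 ppm in the M libraries and 0.0847 and 0.0887 ppm in the RE libraries, close to the floor in all of them.

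Levels of different receptors were compared per kilobase of exon, with exon lengths from GENCODE vM21 (GRCm38), a newer annotation than the NCBI-m37 genome used for mapping. The length of a gene was that of all its annotated exons merged, which can be longer than any single transcript. The summed coverage of the 4 receptors per length was 18 and 19.9 ppm per kb in the E libraries, 49.6 and 48.3 in the M libraries and 57.6 and 50.9 in the RE libraries. *Fgfr1* made up 73.1% and 71.7% of this sum in the E libraries, 95.6% and 94.9% in the M libraries and 80.4% and 80.0% in the RE libraries. *Fgfr2* made up 25.8% and 27.5%, 3.69% and 4.36%, and 19.1% and 19.7%, respectively. The log2 ratio of *Fgfr1* to *Fgfr2* coverage within a library, which does not depend on library scaling beyond the pseudocount, was 1.43 and 1.32 in the E libraries, 4.62 and 4.37 in the M libraries and 2.01 and 1.96 in the RE libraries. The 3 groups did not overlap, and with 2 libraries per group this ratio was described and not tested.

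**Figure D2:**
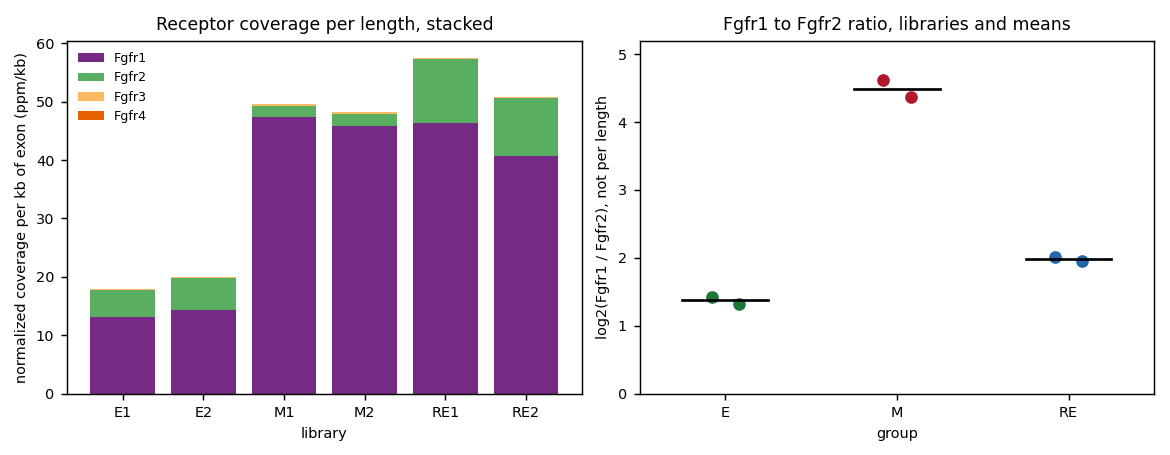
Left, normalized coverage per kb of exon (y axis, ppm per kb) of the 4 FGF receptors stacked for each library (x axis). Right, log2 ratio of *Fgfr1* to *Fgfr2* coverage, not divided by length, in the libraries of each group (dots) with the group means (bars). The summed receptor coverage was 19.9 ppm per kb or less in the E libraries and 48.3 or more in the others, and the ratio was highest in the M libraries, at 4.62 and 4.37.

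Of the 2 ligands, *Fgf1*, an acidic FGF that binds all FGF receptors, was at 0.698 and 0.633 ppm in the E libraries, 1.49 and 2.03 ppm in the M libraries and 10.7 and 7.82 ppm in the RE libraries. Coverage was lowest in the E cells and highest in the RE cells, with no overlap between groups. The log2 fold change was 2.33 (SE 0.26, adjusted p = 0.000593 by limma) in M vs. RE and 3.60 (SE 0.26, adjusted p = 0.000336) in E vs. RE, where the RE mean was 13.9 times the E mean. The rise in the M cells (1.27, SE 0.26, adjusted p = 0.00721 by limma) was close to the threshold and was not called under 10 of 17 alternatives, with values between 0.72 and 1.48 and adjusted p-values by limma of up to 0.0685. In a newer RefSeq annotation *Fgf1* overlaps *Arhgap26*, and how reads were shared between them is not known. *Arhgap26* itself averaged 3.57 ± 1.08 ppm in E, 1.37 ± 0.139 ppm in M and 3.03 ± 0.217 ppm in RE (SD, n = 2 each), so that it was called lower in M (−1.29, adjusted p = 0.00701 by limma) and was not called in E vs. RE (−0.20, adjusted p = 0.596).

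*Fgf2*, the basic FGF, was at the floor in every library (0 to 126 bases), so that no comparison could be made at this depth. *Fgfbp1* encodes a secreted protein that carries FGFs away from the matrix-bound store. It was at 147 and 75.2 ppm in the E libraries, 17.7 and 11.5 ppm in the M libraries and 85.9 and 72.3 ppm in the RE libraries. Both M libraries were far below the others, while the E and RE libraries overlapped and the 2 E libraries were further apart than the E and RE means. Its log2 fold change was −2.87 (SE 0.33, adjusted p = 0.000502 by limma) comparing E with M, 2.45 (SE 0.33, adjusted p = 0.00129) in M vs. RE and −0.42 (95% interval −1.18 to 0.34, adjusted p = 0.364) in E vs. RE, the last of which turned to 0.07 without the first E library.

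The Sprouty genes encode intracellular inhibitors of receptor tyrosine kinase signalling. *Spry1*, which per length had the highest coverage of the 10 genes in the E cells, was at 362 and 324 ppm in the E libraries, 49.1 and 30.5 ppm in the M libraries and 135 and 116 ppm in the RE libraries. The groups did not overlap, and the RE libraries lay between the others. Its log2 fold change was −3.14 (SE 0.22, adjusted p = 6.52e-05 by limma) comparing E with M, 1.69 (SE 0.22, adjusted p = 0.00129) in M vs. RE and −1.45 (SE 0.22, adjusted p = 0.00372) in E vs. RE. The E mean was 8.62 times the M mean and 2.74 times the RE mean.

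*Spry2* had lower coverage and moved less. It was at 14.4 and 14.8 ppm in the E libraries, 7.43 and 6.29 ppm in the M libraries and 11.1 and 12.0 ppm in the RE libraries, again without overlap and with RE between the others. It was called lower in the M cells (−1.09, SE 0.17, adjusted p = 0.00192 by limma), which was lost under 3 of 17 alternatives (−0.97 to −1.39 over all of them, adjusted p-values by limma of up to 0.0287). It was not called in M vs. RE (0.74, SE 0.17, adjusted p = 0.0130 by limma) or in E vs. RE (−0.34, 95% interval −0.73 to 0.04, adjusted p = 0.152). *Spry4* was at 0.222 and 1.57 ppm in the E libraries, 0.239 and 0.127 ppm in the M libraries and 0 and 0.0228 ppm in the RE libraries, where both were at the floor. Against the mean floor of the RE libraries, *Spry4* coverage was at least 3.37-fold higher in the first and at least 23.8-fold higher in the second E library, and the E and M libraries overlapped.

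The bases just before the annotated starts of *Spry1* and *Spry2* are shown. Both genes were lower in the M cells, and the bases just after each start occur within a GENCODE vM21 transcript of the gene. Whether a transcript begins at that start was not checked. The windows are 250 bases long, 5′ to 3′ on the strand of the gene, from RefSeq on GRCm38.p6 (chr3:37639697-37639946, plus strand, and chr14:105896820-105897069, minus strand). Capitals mark a GC box (GGGCGG), found in *Spry1* between 60 and 55 bases before the start.
Spry1: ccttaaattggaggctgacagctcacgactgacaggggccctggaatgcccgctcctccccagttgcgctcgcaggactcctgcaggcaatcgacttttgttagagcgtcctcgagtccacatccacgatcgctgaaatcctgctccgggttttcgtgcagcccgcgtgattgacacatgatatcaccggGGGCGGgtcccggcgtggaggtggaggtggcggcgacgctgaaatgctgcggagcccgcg
Spry2: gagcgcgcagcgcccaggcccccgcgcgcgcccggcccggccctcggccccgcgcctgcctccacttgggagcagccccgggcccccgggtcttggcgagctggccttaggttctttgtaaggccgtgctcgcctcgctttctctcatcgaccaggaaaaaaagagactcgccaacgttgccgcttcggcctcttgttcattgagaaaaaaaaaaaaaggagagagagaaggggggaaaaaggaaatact
Both strands were searched for GGGCGG, an E-box of the kind that Snail and Zeb factors bind (CAGGTG), the AP-1 motif (TGANTCA) and an ETS motif (CCGGAA), and no other match was present in either window. Among 32817 mouse promoter windows of the same length, 32.7% held the GC box, 17.2% the E-box, 6.75% the AP-1 motif and 12.0% the ETS motif. Both *Spry1* and *Spry2* windows had a GC content of 62.4%.

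**Figure D3:**
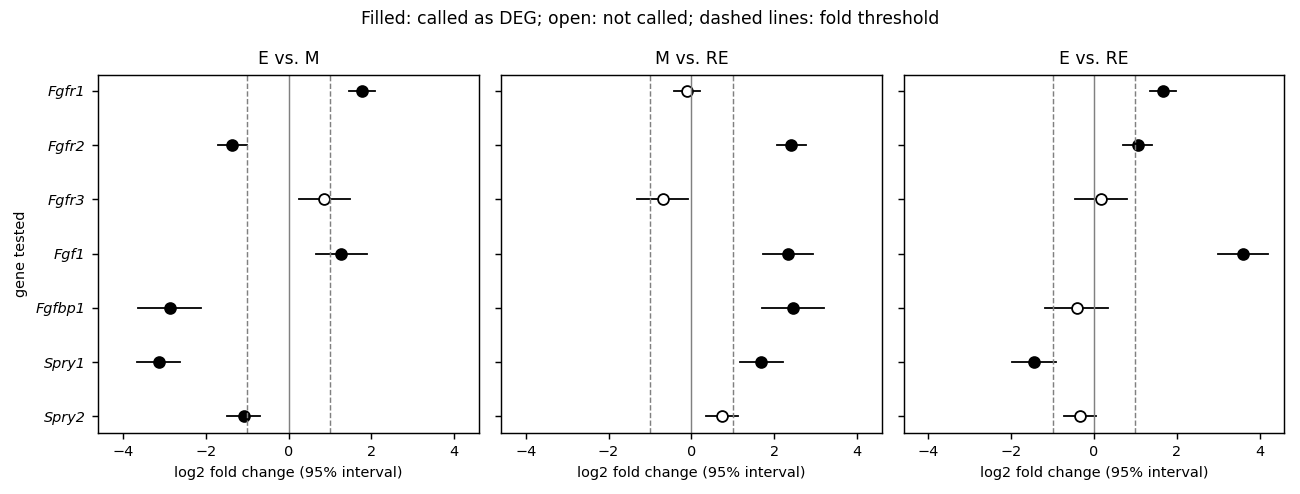
Log2 fold changes (x axes) of the 7 genes tested (y axis) in the 3 comparisons, with 95% intervals from limma (lines), filled where called and open where not. Dashed lines mark the fold threshold of 1 either way. *Fgf1* in E vs. RE, at 3.60, was the largest increase and *Spry1* in E vs. M, at −3.14, the largest decrease of these 21 values.

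Ordered by coverage per length, *Spry1* stood first in the E cells (118 ppm per kb), followed by *Fgfbp1* (49.1), *Fgfr1* (13.7), *Spry2* (7.02) and *Fgfr2* (5.06), and no neighbours in this order overlapped. In the M cells *Fgfr1* stood first (46.6), followed by *Spry1* (13.7), *Fgfbp1* (6.46), *Spry2* (3.29) and *Fgfr2* (1.97), again without overlap. In the RE cells *Fgfr1* (43.5) and *Spry1* (43.1) overlapped at the top, followed by *Fgfbp1* (34.9), *Fgfr2* (10.5) and *Spry2* (5.52). *Fgf1* and *Fgfr3* were far below these in every group, at 0.122 and 0.165 ppm per kb in E, 0.323 and 0.310 in M, where they overlapped, and 1.69 and 0.190 in RE, where *Fgf1* was above. The E mean of *Spry4*, at 0.188 ppm per kb, lay between its unlike libraries and overlapped both of them. The order between genes depends on the merged exon lengths used. Without division by length, the RE means were 430 ppm for *Fgfr1* and 125 ppm for *Spry1*.

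The other genes of the pathway were taken from lists drawn up by role, and 70 genes outside the 10 were tested. Of these, 17 were called in E vs. M (3 raised and 14 reduced in M), 13 in M vs. RE (9 raised and 4 reduced in RE) and 12 in E vs. RE (4 raised and 8 reduced in RE). Over all genes tested the shares were 17.0% (8.58% raised and 8.39% reduced), 12.9% (8.08% and 4.79%) and 9.37% (6.20% and 3.17%). The medians of the log2 fold changes of the 70 genes were 0.11, −0.11 and −0.01, beside 0, −0.02 and 0.01 over all genes tested.

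Among 8 other FGF genes tested, not all of them ligands of the receptors, 3 were called lower in the M cells and none higher. Of all genes tested, 8.39% were called lower and 8.58% higher in M. *Fgf7*, the keratinocyte growth factor that binds the epithelial form of Fgfr2, was at 2.38 and 1.41 ppm in the E libraries, 0.356 and 0.270 ppm in the M libraries and 2.91 and 2.45 ppm in the RE libraries. It was lower in the M cells (−2.24, SE 0.32, adjusted p = 0.00137 by limma), higher again in the RE cells (2.75, SE 0.32, adjusted p = 0.000653) and not called in E vs. RE (0.52, adjusted p = 0.247). *Fgf21*, an endocrine FGF, averaged 4.86 ± 1.74 ppm in E, 0.699 ± 0.0182 ppm in M and 0.338 ± 0.0290 ppm in RE (SD, n = 2 each), and was called lower in M and RE (−2.59 and −3.46, adjusted p = 0.000628 and 0.000541 by limma). *Fgf15*, another endocrine FGF, was at 0.499 and 1.07 ppm in the E libraries and at the floor in the M and RE libraries, and its E mean was at least 10.8-fold higher than that of the M cells and at least 11.9-fold higher than that of the RE cells (at least 6.9-fold and 7.57-fold for the first E library alone).

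Of the co-receptors and related membrane proteins, *Flrt2*, one of the FLRT proteins that can bind FGF receptors, was at 45.0 and 47.2 ppm in the E libraries, 229 and 205 ppm in the M libraries and 48.6 and 37.5 ppm in the RE libraries. It was higher in the M cells (2.23, SE 0.16, adjusted p = 6.52e-05 by limma), lower again in the RE cells (−2.34, adjusted p = 5.6e-05) and not called in E vs. RE. *Flrt1* was at 3.05 and 10.2 ppm in the E libraries, at the floor in the M libraries and at 0.280 and 0.577 ppm in the RE libraries, and its E mean was at least 91.4-fold higher than that of the M cells (at least 42.2-fold for the first E library alone). *Fgfrl1*, a receptor-like protein without a kinase domain, was called in M vs. RE alone (8.13 ± 0.185 ppm in the M and 19.1 ± 1.49 ppm in the RE cells, SD, n = 2, log2 fold change 1.22, adjusted p = 0.00178 by limma).

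The 19 genes of the relay from the receptor to ERK, among them *Frs2*, *Grb2* and *Sos1*, gave 0 calls in E vs. M and 0 in E vs. RE by limma. Of all genes tested, 17.0% and 9.37% were called. Of the 19, 12 and 11 had an unadjusted p below 0.05 by limma, beside 51 and 38 of the 70 pathway genes, and 7 in each comparison an adjusted p below 0.05. The 2 E libraries differed for *Frs2* (11.9 and 34 ppm) and *Sos1* (52.4 and 110 ppm), and less for *Grb2* (33.5 and 30 ppm). Their median log2 fold change was 0.37 from E to M, −0.32 from M to RE and 0.32 from E to RE.

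Of 7 feedback inhibitors tested outside the Sprouty family, 2 were called lower in the M cells, both of them MAP kinase phosphatases. Of all genes tested, 8.39% were called lower in M. The median log2 fold change of the 7 from E to M was 0.49. *Spred1*, *Spred2*, *Spred3*, *Il17rd* and *Dusp4* were not called in any comparison. In both M libraries *Spred1*, *Spred2*, *Il17rd* and *Dusp4* were above both E libraries (0.49, 1.05, 1.29 and 0.66, adjusted p = 0.0173, 0.0296, 0.144 and 0.00971 by limma), while *Spred3* was at −0.01. Of all genes tested, 70.6% had no overlap between E and M libraries, in either direction. *Il17rd* was at 0.278 and 1.72 ppm in the E libraries and 1.95 and 1.91 ppm in the M libraries. *Dusp6*, a phosphatase of ERK, was at 73.2 and 56.5 ppm in the E libraries, 12.5 and 12.4 ppm in the M libraries and 47.3 and 40.1 ppm in the RE libraries. It was lower in the M cells (−2.36, SE 0.17, adjusted p = 6.6e-05 by limma), higher again in the RE cells (1.80, adjusted p = 0.000253) and not called in E vs. RE (−0.56, adjusted p = 0.0425). *Dusp5*, a nuclear phosphatase of ERK, was at 73.8 and 78.5 ppm in the E libraries, 30.7 and 29.6 ppm in the M libraries and 22.3 and 22.0 ppm in the RE libraries. It was lower in both the M cells (−1.33, SE 0.13, adjusted p = 0.000228 by limma) and the RE cells (−1.77, SE 0.13, adjusted p = 0.000333), with no call between them.

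Of 12 genes that respond to ERK activity, 5 were called lower and none higher in the M cells, 4 higher and 1 lower in M vs. RE, and 1 higher and 3 lower in E vs. RE. Of all genes tested, 8.39% were called lower and 8.58% higher in M. For M vs. RE the shares were 8.08% higher and 4.79% lower, and for E vs. RE 6.20% higher and 3.17% lower. *Fos*, an immediate-early AP-1 subunit, was at 223 and 156 ppm in the E libraries, 14.4 and 12.3 ppm in the M libraries and 60.3 and 51.7 ppm in the RE libraries. It was lower in the M cells (−3.80, SE 0.20, adjusted p = 1.84e-05 by limma) and stayed below the E cells after removal of TGFβ1 (−1.74, SE 0.20, adjusted p = 0.00124). *Myc*, a growth-promoting transcription factor, averaged 281 ± 74.6 ppm in E, 77.8 ± 10.2 ppm in M and 115 ± 0.440 ppm in RE (SD, n = 2 each), and was called lower in M and RE (−1.83 and −1.26, adjusted p = 0.000383 and 0.00390 by limma).

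The immediate-early genes *Egr1* (−1.82, adjusted p = 0.00179 by limma) and *Ier2* (−1.57, adjusted p = 0.000784) were lower in the M cells, higher again in the RE cells (1.58 and 1.81, adjusted p = 0.00433 and 0.000506) and not called in E vs. RE. *Egr2* was at 20.1 and 16.8 ppm in the E libraries, 8.06 and 7.85 ppm in the M libraries and 38.6 and 36.0 ppm in the RE libraries, and ended above the E cells (1.02, SE 0.16, adjusted p = 0.00368 by limma). The groups of *Egr2* stood in the same order as those of *Fgfr2*. The group means of *Fgf7*, *Fgfrl1*, *Hs3st1*, *Sulf2* and *Ier2*, among others, also stood in this order. The remaining calls, named after their values were seen, were *Etv4*, an ETS factor, which averaged 57.3 ± 3.70 ppm in E, 84.9 ± 11.7 ppm in M and 29.0 ± 4.13 ppm in RE (SD, n = 2 each) and was lower after removal (−1.55, adjusted p = 0.000437 by limma), and the cyclin gene *Ccnd1*, lower in E vs. RE (−1.38, adjusted p = 0.00196).

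**Figure D4:**
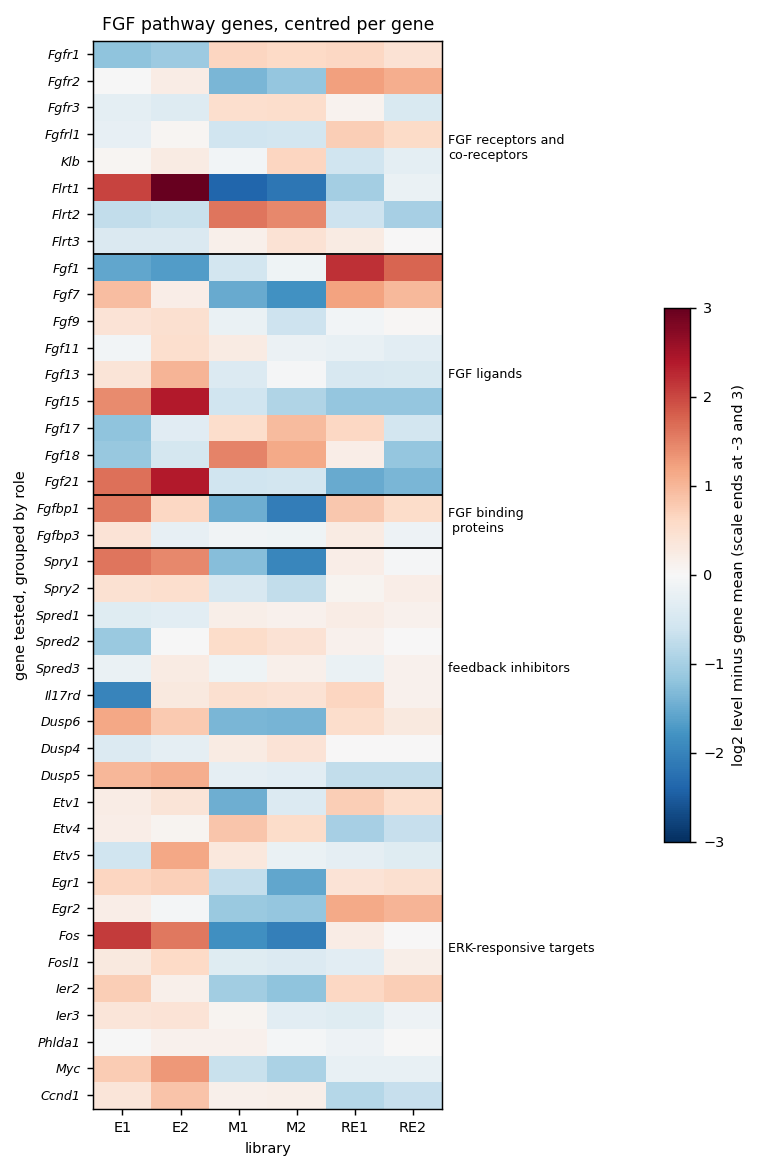
Log2 level minus the mean of each gene over the 6 libraries (colour, scale ending at −3 and 3, which only *Flrt1* in the second E library exceeds) for the receptors, FGF genes (the group labelled FGF ligands), binding proteins, feedback inhibitors and ERK-responsive genes tested (rows, grouped by role) in each library (columns). *Fos*, *Dusp6* and *Spry1* were high in the E, low in the M and intermediate in the RE libraries, while *Fgf1* was highest in the RE libraries.

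Heparan sulphate is the co-receptor of most FGFs, and of 12 of its enzymes tested 2 were called from E to M, 3 from M to RE and 2 from E to RE. Over all genes tested the shares called were 17.0%, 12.9% and 9.37%, so the count from E to M was no higher than the share of all genes. *Ext1*, a polymerase of the chain, was at 126 and 146 ppm in the E libraries, 646 and 586 ppm in the M libraries and 303 and 296 ppm in the RE libraries, higher in both the M cells (2.18, adjusted p = 3.97e-05 by limma) and the RE cells (1.15, adjusted p = 0.00147) than in the E cells. *Hs3st1*, a 3-O-sulphotransferase, averaged 6.19 ± 1.33 ppm in E, 0.589 ± 0.232 ppm in M and 10.3 ± 0.0696 ppm in RE (SD, n = 2 each), with a fall in M (−3.22, adjusted p = 0.000160 by limma), a rise in RE (3.96, adjusted p = 7.01e-05) and no call in E vs. RE. *Sulf2*, an enzyme that removes 6-O-sulphates outside the cell, was at 43.3 and 48.3 ppm in the E libraries, 28.2 and 31.3 ppm in the M libraries and 123 and 121 ppm in the RE libraries, and was called in M vs. RE (2.04, adjusted p = 4.7e-05 by limma) and E vs. RE (1.42, adjusted p = 0.000649).

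Of 6 regulators that act on the alternative exons of *Fgfr2*, the epithelial splicing factors *Esrp1* and *Esrp2* were lower in the M cells (−1.72 and −1.24, adjusted p = 0.00130 and 0.00557 by limma). *Esrp1* was at 242 and 421 ppm in the E libraries, 93.3 and 101 ppm in the M libraries and 130 and 124 ppm in the RE libraries, and was still lower in the RE cells (−1.33, SE 0.24, adjusted p = 0.00673 by limma), in which *Fgfr2* was at its highest. *Ptbp2* was higher in the M and RE cells (1.14 and 1.06, adjusted p = 0.000451 and 0.00140 by limma), and *Rbfox2*, *Ptbp1* and *Celf1* were not called.

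The genes whose centred log2 values over the 6 libraries lay nearest to those of a called gene were sought among 10095 others, or 10096 for *Fgf1*, whose own average log2 value reached 2. The distance is the root-mean-square difference on the log2 scale, over 6 libraries that share 3 groups. Nearest to *Fgfr1* were *Sertad4* (0.0698), *Pdlim5* (0.0761) and *Nrp1* (0.0908), and nearest to *Fgfr2* were *Lrch1* (0.0903), *Cnksr3* (0.0922) and *Notch1* (0.111). For *Fgf1* they were *Fyb* (0.213), *Mylk* (0.388) and *Csmd3* (0.456), which are less close. For *Fgfbp1* they were *AI429214* (0.201), *Dtwd1* (0.242) and *Efcab4a* (0.258). For *Spry1* they were *Arhgef16* (0.240), *Dll1* (0.242) and *Bspry* (0.257), and for *Spry2* *Pard6a* (0.0719), *Zfp446* (0.0729) and *AI462493* (0.0812).

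More calls on the 7 genes were lost when 1 library was left out than under the other settings of the fit. Leaving out 1 library leaves its group with 1 sample, which is then assumed to vary like the other groups. Such a fit also holds less information on the spread, so a lost call need not mean that the value moved. In E vs. RE, the log2 fold changes over these fits were 1.57 to 1.76 for *Fgfr1*, 0.94 to 1.18 for *Fgfr2*, 3.37 to 3.82 for *Fgf1* and −1.56 to −1.35 for *Spry1*. Without the first RE library, 0 of the 7 were called in E vs. RE by limma (4 had an unadjusted p below 0.05 and 3 an adjusted p below 0.05), and 44 of 13764 genes were called in all. Without the second RE library, *Fgfr1* and *Fgf1* were called in E vs. RE, and 160 of 13768 genes in all. In M vs. RE, *Fgfr2* alone was called without the first RE library, and *Fgfr2* and *Fgf1* without the second. Without the first M library, *Fgfr1*, *Fgfbp1* and *Spry1* were called in E vs. M, and without the second also *Fgfr2*. Without the second M library, *Fgfbp1* was no longer called in M vs. RE. The called values kept their direction in each of these fits.

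**Figure D5:**
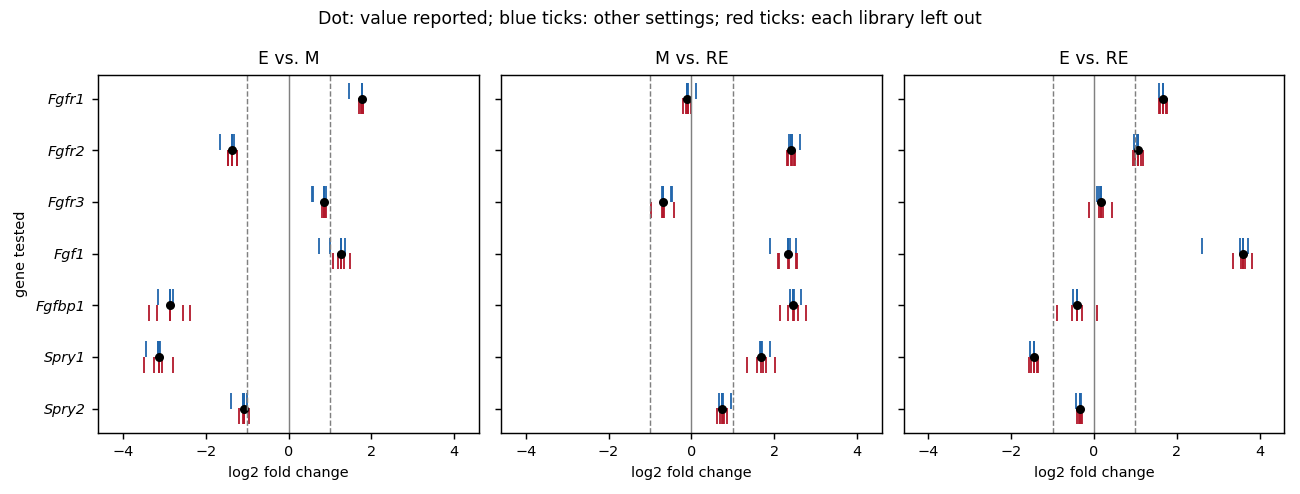
Log2 fold changes (x axes) of the 7 genes tested (y axis) in the 3 comparisons as reported (dots), under other settings of the processing (blue ticks) and with each library left out (red ticks). *Fgfbp1* in E vs. M ranged from −3.38 to −2.39 over all alternatives and *Fgfr1* in E vs. M from 1.46 to 1.80, on 1 side of the fold threshold throughout.

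Of 7 leukocyte, endothelial and adipocyte markers in the table, between 4 and 6 per library were at the floor, and their sum was 0.287 to 0.468 ppm in the E, 2.70 to 2.83 ppm in the M and 0.477 to 0.511 ppm in the RE libraries. The endothelial cadherin *Cdh5* accounted for most of the M sum, at a mean of 2.20 ppm. The leukocyte marker *Ptprc* was at the floor in every library. The summed level of the 7 epithelial markers was 1620 to 2040 ppm in the E, 1940 to 2070 ppm in the M and 1120 to 1180 ppm in the RE libraries, but its members moved in different ways. *Krt14* was called higher from E to M (1.42, adjusted p = 0.000940 by limma) and lower from M to RE (−1.10, adjusted p = 0.00364), *Krt8* was lower from M to RE (−1.32, adjusted p = 0.000529), and *Krt18* was lower from E to RE (−1.34, adjusted p = 0.00305). *Epcam* was lower in both M and RE than in E (−1.26 and −1.23, adjusted p = 0.000621 and 0.00153 by limma), and *Cdh1* and *Krt5* were not called. The part of either in the results above was not tested.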

How the data were processed

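RNA of 2 biological replicates each of E, M and RE cells was sequenced. The authors mapped unique reads to the NCBI-m37 mouse genome with Bowtie and TopHat2 (versions not given in the sources used here). They deposited 1 table of unnormalized whole numbers for 17428 gene symbols, which were handled as coverage (signal), that is, bases summed per gene. Between 44.8% and 48.4% of the values from 1 to 400 in a library are multiples of 50. How reads were summed, and whether by strand, is not given in the sources used here, so overlapping genes may share coverage.

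Values were scaled to ppm with unweighted TMM factors (trimming 30% of the log ratios and 5% of the levels at each end, giving 0.871 to 1.12). Genes with at least 500 bases in 2 libraries (13893) were tested with limma 3.58.1 in R 4.3.3 on log2(ppm + 0.1), all 6 libraries in 1 fit, group only, empirical Bayes with a trend, and Benjamini-Hochberg adjustment. The edgeR test of the study needs read counts and was not used. The p-values rest on a spread pooled over all 3 groups and moderated across genes, and not on that of the 2 groups compared alone. The spread between replicates differed by group (SD 0.558 for E, 0.318 for M and 0.309 for RE). Beyond the term biological replicates nothing says that cultures were separate, so this spread may be technical.

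The 10 genes and the lists were chosen with earlier results of these data known. The genes named are all 10, up to 5 called genes per list with the largest change, the list genes given as not called, and the 3 nearest genes in pattern. Of the genes on the lists, 9 were not analysed here and 7 were matched by an older symbol, and a result on the relay genes is not reported here. Alternatives were other thresholds, scalings, pseudocounts (0.025 and 1 ppm) and filters, fitting just the 2 groups compared, a replicate block, array weights and leaving out each library.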

Additional observations from a re-analysis of the deposited data

How the results depend on the processing

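Of 357 recomputed log2 fold changes of the 7 genes tested, 323 kept their direction and were called or not called as before, 31 kept their direction and lost their call, and 3 changed sign. Those 3 were not called. Other thresholds and filters, the fit of just the groups compared, the replicate block and array weights left the log2 fold changes as they were. No direction could change under these settings, and the looser thresholds could only add calls, so the counts overstate how far the values were tried. *Fgfr1* in M vs. RE was 0.10 when libraries were scaled by their totals only, *Fgfbp1* in E vs. RE 0.07 without the first E library (−0.90 without the second) and *Fgfr3* in E vs. RE −0.11 without the first RE library (0.44 without the second). Scaling by totals only shifted the all-gene median to −0.29 on the log2 scale in E vs. M and 0.18 in M vs. RE.

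Without 1 library at a time, between 3 and 6 of the 7 genes were called in E vs. M, 1 to 4 in M vs. RE and 0 to 4 in E vs. RE, and of the other pathway genes 9 to 29, 8 to 16 and 0 to 18. A fit of only the 2 groups compared called 5 of the other pathway genes in E vs. RE, in place of 12, and 525 of all genes in place of 1302, whereas in M vs. RE it called 16 in place of 13 and 2327 of all genes in place of 1789. The cause was not tested. Over all genes, leaving out 1 library moved the calls from 2358 to between 945 and 3362 in E vs. M, from 1789 to between 683 and 2337 in M vs. RE and from 1302 to between 44 and 2348 in E vs. RE.

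Deviations of same-numbered libraries from their group means had a correlation over genes of 0.267 between E and M, 0.0580 between E and RE and 0.116 between M and RE. The main fit had no replicate block because the study's methods name none. These correlations do not show that same-numbered libraries share nothing but a number. With the replicate block, 5 of the 7 genes were called in E vs. M (*Fgf1*, at 1.27, had an adjusted p of 0.0104 by limma), and 4 each in M vs. RE and E vs. RE. Of the other pathway genes it called 17, 13 and 13 in this order. Depth limits what can be said of *Fgf2* and *Fgfr4*, which were at or near the floor, and of *Spry4* in the RE libraries. Without a filter, no call was made on these 3, and *Spry4* in E vs. RE had an adjusted p of 0.0393 by limma.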
